A study of Mus musculus with 12 samples.

Results

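The genes described here are 44 interferon-stimulated genes, which are transcribed at a high rate when a cell senses interferon. They were chosen by symbol from a list, and all 44 were found among the 24062 genes of the count table and passed the filter on low counts, which left 12154 genes. The list was drawn up with these data in view, since 1 library, shBruce FM replicate 3, is low in them. Values that rest on the shBruce FM libraries are therefore given as a description, without a test. RNA was sequenced from mouse embryonic fibroblasts (MEFs) that express an shRNA against Renilla luciferase (shRenilla, the control) or against Birc6, the gene that encodes BRUCE (shBruce). Cells of both lines stayed in full medium (FM) or were starved for 2 h in medium without serum and amino acids (Starv), with 3 replicates in each of the 4 groups. The hairpins are expressed from a retroviral vector, and each shRNA is represented by a single line, so that other differences between the lines and the knockdown cannot be told apart.

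Interferons of type I are secreted by cells that detect viral RNA or DNA. They bind a receptor made of IFNAR1 and IFNAR2, whose kinases JAK1 and TYK2 phosphorylate STAT2 and other factors. STAT2 and IRF9 are parts of the complex ISGF3, which binds the interferon-stimulated response element (ISRE) in the promoters of antiviral genes, and fibroblasts keep part of this programme running at a low level without infection. Interferon-γ acts through another receptor and through the gamma-activated sequence (GAS).

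The members fall into 11 roles. Sensors of viral RNA and DNA are Ddx58 (RIG-I), Ifih1 (MDA5), Dhx58 (LGP2) and Zbp1, and the transcription factors are Stat2, Irf9 and Irf7. ISG15 conjugation and ubiquitin ligases comprise Isg15 itself, Usp18, Herc6, Trim25, Trim30a and Dtx3l. Parp9 and Parp14 are PARP enzymes, and Ifit1, Ifit2 and Ifit3 bind viral RNA. Oas1a, Oas2 and Oas3 make the short oligoadenylates that activate an antiviral RNase, and Oasl1 and Oasl2 are their relatives. Other antiviral effectors are Mx1, Mx2, Rsad2 (viperin), Bst2 (tetherin), Eif2ak2 (PKR), Cmpk2 and Samd9l. Gbp2, Gbp3, Gbp7, Irgm1 and Igtp are interferon-inducible GTPases, and Psmb8, Psmb9 and Tap1 supply peptides for antigen presentation. Cxcl10 and Lgals3bp are secreted, and Ifi35, Ifi44, Xaf1 and Rtp4 are further induced genes.

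Among members that hold the ISRE letters, 4 had the lowest level in shBruce FM replicate 3 relative to replicates 1 and 2. Their promoters are printed here. They come from RefSeq on GRCm38.p6, run 5′ to 3′ on the strand of the gene, and hold 50 bases on either side of the letters GAAANNGAAA or of their reverse complement, which are in capitals. In Oas1a and Gbp3, 2 overlapping matches form the run in capitals.
Trim30a, chr7:104465170-104465279, minus strand: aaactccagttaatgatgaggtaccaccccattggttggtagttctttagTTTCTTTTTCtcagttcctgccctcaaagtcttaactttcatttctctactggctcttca
Oas3, chr5:120777675-120777784, minus strand: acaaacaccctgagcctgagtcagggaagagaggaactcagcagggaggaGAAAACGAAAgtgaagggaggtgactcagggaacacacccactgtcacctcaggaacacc
Oas1a, chr5:120907480-120907595, minus strand: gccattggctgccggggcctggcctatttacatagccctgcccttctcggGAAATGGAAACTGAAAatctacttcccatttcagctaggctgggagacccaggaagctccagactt
Gbp3, chr3:142559949-142560064, plus strand: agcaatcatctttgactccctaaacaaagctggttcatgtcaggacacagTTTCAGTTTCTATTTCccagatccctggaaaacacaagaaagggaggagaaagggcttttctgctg
The match begins 36 bases before the start site of Trim30a, 75 before that of Oas3, 20 before that of Oas1a and 45 before that of Gbp3.

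Windows of 250 bases before to 50 bases after the start site were at hand for 35 of the 44 members. The ISRE letters, on either strand, stood in 18 of these 35 genes (51.4%), against 3.99% of all 27025 genes of the promoter table and 3.62% of the 9183 of them that were tested. The GAS letters TTCNNNGAA were in 8 members (22.9%) and in 9.55% of all genes of the table, and 5 members held both. These are matches of letters, not measured binding sites, and no match says only that the letters are not in this window. ISGF3 binds the ISRE in antiviral genes, so a high share among such genes is no independent support for the choice. Isg15, Ifit1, Ifit3, Rsad2, Bst2, Stat2, Ddx58 and Cxcl10 are among the members with the ISRE letters. Parp9, Zbp1, Mx1, Parp14, Oas2, Dhx58, Rtp4, Mx2 and Usp18 have no entry in the table.

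Total counts were between 7717265 in shBruce Starv replicate 1, whose values are therefore the least precise, and 18510540. Values are counts normalized for library size by the TMM method, and SDs are over the 3 libraries of a group. Birc6, the target of the shRNA, had normalized counts of 4682, 3273 and 5061 in shRenilla FM, 4759, 4712 and 2787 in shRenilla Starv, 1207, 1265 and 1390.4 in shBruce FM and 1175, 703 and 1226 in shBruce Starv, so that every shBruce library, replicate 3 of FM included, lay below every shRenilla library. Over the 12154 genes tested, 0 passed the threshold between the lines in FM or in the interaction of line and medium (edgeR, adjusted p under 0.05), where 1750 and 474 genes had an unadjusted p under 0.05. DESeq2's Wald test called 71 genes between the lines in FM and 0 in the interaction, and limma-voom 0 in both, whereas edgeR on the 6 FM libraries alone called 221 of 11680 genes higher and 376 lower between the lines. The fibroblast markers Col1a1, Col1a2, Vim, Fn1 and S100a4 were high in each library, while Thy1 and Fap were at or near 0 throughout.

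All members were transcribed in unstressed control cells. Per kilobase of the longest annotated transcript, the mean normalized count in shRenilla FM was highest for Bst2, which tethers budding virus to the cell surface, at 5164, followed by the ubiquitin-like protein Isg15 at 2555, Lgals3bp at 1554, the chemokine Cxcl10 at 1101 and Ifi35 at 1059. It was lowest for Psmb9 at 24.9 and Oas3 at 24.2. None of the members was below 0.5 times or above 2 times the mean of the other 2 libraries of its group in any of the 6 shRenilla libraries. Of all genes tested, 0.51 to 0.93% were below and 0.29 to 0.52% above in these libraries, so the absence says little about the members. Members made up 0.263 to 0.373% of all normalized counts in the 11 libraries other than shBruce FM replicate 3, and 0.0688% in that library.

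In shBruce FM replicate 3, 41 of the 44 members were below 0.5 times the mean of replicates 1 and 2 of the same group, and 42 had their lowest value of all 12 libraries there. Of all genes tested, 3.63% were below 0.5 times that mean, and the share with their lowest value in that library was not counted. The member list was chosen for this library, so the counts describe the choice and nothing is read from them. The median ratio of replicate 3 to the mean of replicates 1 and 2 was 0.151 over members and 1.01 over all genes tested. Fewer cells that transcribe these genes and less RNA from each cell cannot be told apart in bulk RNA.

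**Figure D1:**
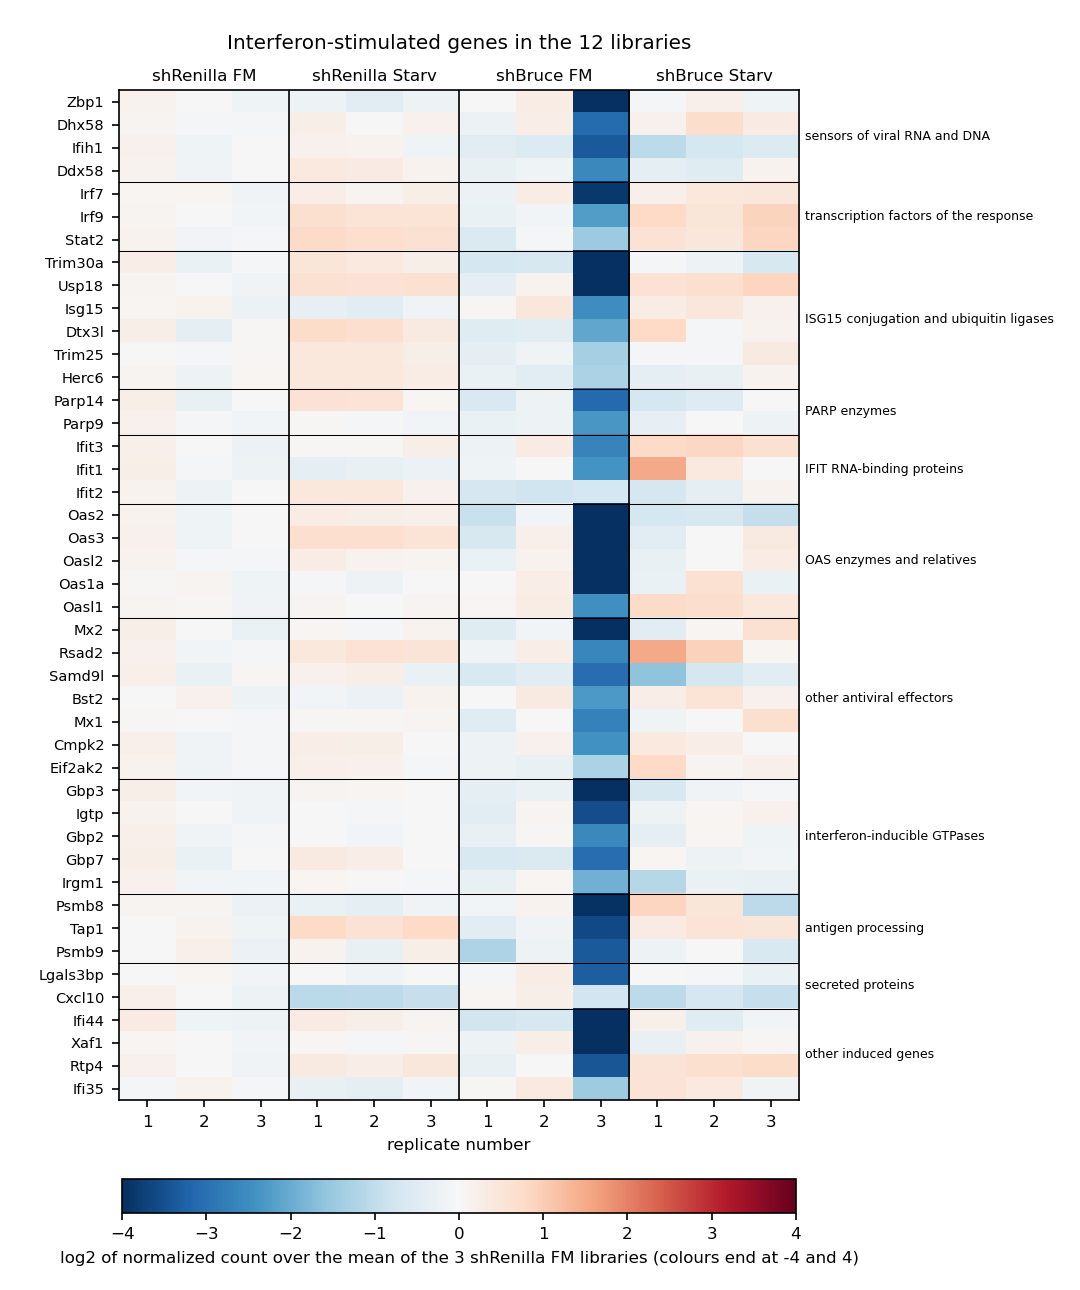
Heat map of the 44 members (rows, grouped by role) in the 12 libraries (columns, by group and replicate number). Colour gives the log2 of the normalized count over the mean of the 3 shRenilla FM libraries; the column of shBruce FM replicate 3 is blue in all rows, with Ifit2 at a level close to that of the other shBruce FM libraries.

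Each library was then set against the other 2 of its group. The median log2 ratio over members was -2.70 in shBruce FM replicate 3, beside 0.01 over all genes. It was 0.51 and 1.08 in replicates 1 and 2, which are compared with a mean that includes replicate 3. In the 6 shRenilla libraries this median lay between -0.14 and 0.23, and in the 3 shBruce Starv libraries between -0.19 and 0.08. The interquartile range over all genes was wider in shBruce Starv than in shRenilla cells, from -0.40 to 0.35 in replicate 1.

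**Figure D2:**
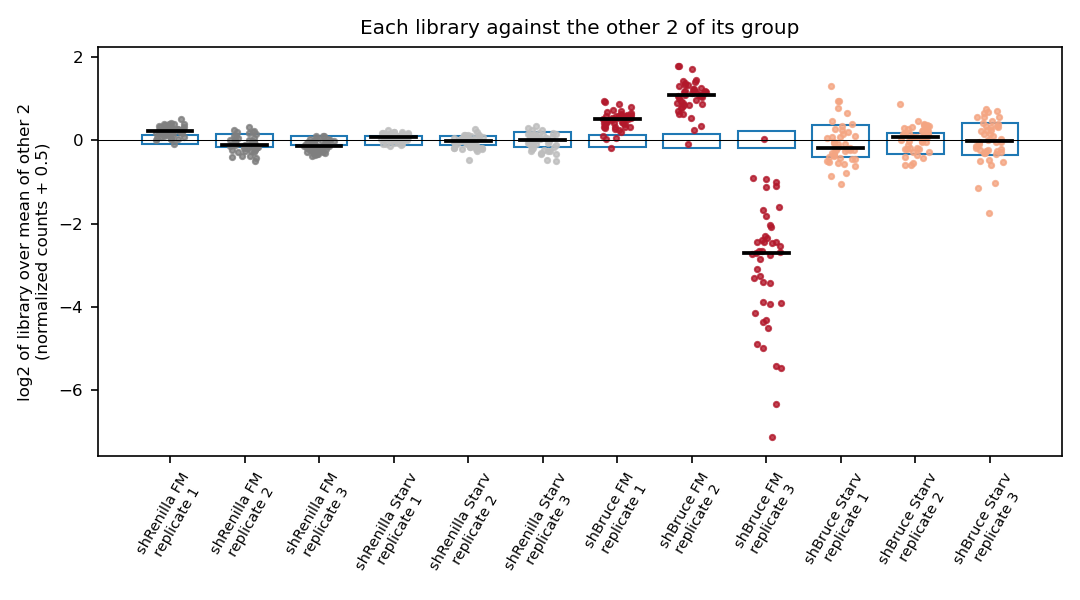
Log2 of each library over the mean of the other 2 libraries of its group (normalized counts plus 0.5). Points are the 44 members, black lines their medians, and blue boxes the interquartile range of all 12154 genes tested; the median of members is -2.70 in shBruce FM replicate 3.

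By the median ratio of a role, the deficit was deepest among the OAS enzymes. Oas2 (chromosome 5, from 120730333 to 120749853 on the minus strand) had normalized counts of 521, 419 and 479 in shRenilla FM, 579, 558 and 539.8 in shRenilla Starv, 254, 441 and 1.98 in shBruce FM and 289, 301 and 244 in shBruce Starv. Its 2 reads in replicate 3 compared with 239 and 421 in replicates 1 and 2, a level 175 times lower. Oas3 (chromosome 5, from 120753098 to 120777661 on the minus strand) had 128, 102 and 113 in shRenilla FM, 181, 181 and 166 in shRenilla Starv, 73.3, 133 and 2.98 in shBruce FM and 84.8, 113 and 146 in shBruce Starv. With 3 reads it was 34.7 times lower. Ratios that rest on so few reads are imprecise, and the members were chosen for low values in this library. Oasl2 had 1633, 1422 and 1397 in shRenilla FM, 1836, 1624 and 1617 in shRenilla Starv, 1234, 1619.5 and 62.5 in shBruce FM and 1217, 1496 and 1807 in shBruce Starv. The ratio of replicate 3 to the mean of the other 2 was 0.0438 for Oasl2, 0.0479 for Oas1a and 0.158 for Oasl1, so all 5 genes of this role were low by different degrees. Oas1a shares sequence with close relatives in the same cluster, which may affect its counts.

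Ubiquitin-like conjugation and its ligases spanned the widest range of ratios on a log scale. Trim30a (chromosome 7, from 104409025 to 104465193 on the minus strand) had 534, 369 and 436 in shRenilla FM, 628, 591 and 522 in shRenilla Starv, 272, 287 and 2.98 in shBruce FM and 430.0, 391 and 285 in shBruce Starv. Its 3 reads in replicate 3 made it 93.9 times lower, again a ratio from few reads. Usp18 (chromosome 6, from 121245906 to 121270917 on the plus strand), the protease that removes ISG15 and dampens receptor signalling, had 913, 842 and 766 in shRenilla FM, 1285, 1252 and 1280.4 in shRenilla Starv, 655, 919 and 17.9 in shBruce FM and 1247, 1352 and 1523 in shBruce Starv. The ratio was 0.0227 for Usp18 and 0.15 for Isg15, its substrate. Isg15 had 2034, 2119 and 1641 in shRenilla FM, 1526, 1452 and 1769 in shRenilla Starv, 1982, 2618 and 344 in shBruce FM and 2356, 2659 and 2179.9 in shBruce Starv. Herc6, the main ligase for ISG15 in the mouse, had 305, 248 and 298 in shRenilla FM, 381, 379 and 348 in shRenilla Starv, 234, 208 and 118 in shBruce FM and 220.0, 232 and 312 in shBruce Starv, and its ratio of 0.534 was the second highest of all members. Trim25, a ubiquitin ligase that activates RIG-I, had 1805, 1701 and 1865 in shRenilla FM, 2423, 2419 and 2129 in shRenilla Starv, 1406, 1637 and 714 in shBruce FM and 1740.0, 1720.0 and 2273 in shBruce Starv. Its ratio was 0.469, and that of Dtx3l, which pairs with Parp9, was 0.328.

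The IFIT genes did not move together in this library. Ifit1 (chromosome 19, from 34640871 to 34650009 on the plus strand) had 2770.2, 2191 and 2051 in shRenilla FM, 1839, 1906 and 1980.1 in shRenilla Starv, 2054, 2310.4 and 444 in shBruce FM and 6722, 3033 and 2383 in shBruce Starv. Ifit2 (chromosome 19, from 34550694 to 34576419 on the plus strand) had 1591, 1254 and 1451 in shRenilla FM, 1912, 1926 and 1596 in shRenilla Starv, 894, 829 and 884 in shBruce FM and 892, 1084 and 1571 in shBruce Starv. Ifit2 was thus as abundant in replicate 3 as in replicates 1 and 2, with a ratio of 1.03, although it lies beside Ifit1 and Ifit3 on chromosome 19, whose ratios were 0.204 and 0.148. Ifit2 was lower in all 3 shBruce FM libraries than in any shRenilla library.

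Transcripts of the sensors and transcription factors were low as well. Ddx58 had 2981, 2486 and 2731 in shRenilla FM, 3563, 3438 and 3018 in shRenilla Starv, 2215, 2445 and 461 in shBruce FM and 2124, 1947 and 3015 in shBruce Starv, and Ifih1 had 674, 526 and 585 in shRenilla FM, 677, 657 and 526 in shRenilla Starv, 444, 405 and 58.5 in shBruce FM and 289, 368 and 408 in shBruce Starv. Replicate 3 was the lowest library for both, with ratios of 0.198 and 0.138, and the ratios of Dhx58 and Zbp1 were 0.115 and 0.049. Irf9 (chromosome 14, from 55603571 to 55610030 on the plus strand) had 1347, 1225 and 1161 in shRenilla FM, 1933, 1811 and 1833 in shRenilla Starv, 1031, 1162 and 267 in shBruce FM and 2164, 1740.2 and 2322 in shBruce Starv. Stat2 (chromosome 10, from 128270559 to 128292849 on the plus strand) had 1100.2, 940.2 and 986 in shRenilla FM, 1697, 1615 and 1555 in shRenilla Starv, 676, 946 and 371 in shBruce FM and 1512, 1374 and 1824 in shBruce Starv. Within ISGF3, Stat2 kept more of its level in replicate 3 (ratio 0.457) than Irf9 (0.243), and Irf7, which drives transcription of the interferons themselves, had a ratio of 0.0673.

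Among the antiviral effectors, Bst2 had 4164, 4582 and 3523 in shRenilla FM, 3775, 3444 and 4537 in shRenilla Starv, 4115, 5224 and 839 in shBruce FM and 4964, 6037 and 4573 in shBruce Starv. Eif2ak2, the kinase that halts translation on double-stranded RNA, had 2629.8, 2176 and 2316 in shRenilla FM, 2714, 2686 and 2258 in shRenilla Starv, 2064, 1927 and 989.7 in shBruce FM and 4166, 2555 and 2734 in shBruce Starv. Ratios in this role ran from 0.0549 for Mx2 to 0.496 for Eif2ak2, with Rsad2 at 0.154, Samd9l at 0.171, Bst2 at 0.18, Mx1 at 0.182 and Cmpk2 at 0.188. Mx1 and Mx2 are paralogs, and shared sequence may affect their counts. Parp9 had 1459, 1232 and 1219 in shRenilla FM, 1334, 1275 and 1203 in shRenilla Starv, 1075, 1133 and 259 in shBruce FM and 1036, 1290.0 and 1132 in shBruce Starv, and Parp14 had 1369.6, 946 and 1159 in shRenilla FM, 1739.7, 1702 and 1219 in shRenilla Starv, 761, 999.8 and 134 in shBruce FM and 719, 815 and 1137 in shBruce Starv. Their ratios were 0.235 and 0.152. Parp9 and Dtx3l overlap by 682 bases and Psmb9 and Tap1 by 212 on opposite strands, so that reads there cannot be assigned without strand.

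Of the GTPases, which attack vacuoles of intracellular pathogens, Irgm1 had 2143, 1763 and 1773 in shRenilla FM, 1997, 1886 and 1839 in shRenilla Starv, 1553, 1992 and 499.8 in shBruce FM and 862, 1576 and 1552 in shBruce Starv, and Gbp3 had 1204, 961 and 928 in shRenilla FM, 1103, 1087 and 1044 in shRenilla Starv, 792, 862 and 54.5 in shBruce FM and 668, 941 and 1004 in shBruce Starv. The 5 ratios lay between 0.066 for Gbp3 and 0.282 for Irgm1. In antigen processing, Tap1 (chromosome 17, from 34187553 to 34197225 on the plus strand), a subunit of the peptide transporter, had 503, 543 and 440.0 in shRenilla FM, 858, 745 and 869 in shRenilla Starv, 366, 450.2 and 40.7 in shBruce FM and 619.7, 718 and 686 in shBruce Starv, and the immunoproteasome subunit Psmb8 had 233, 230.1 and 182 in shRenilla FM, 178, 163 and 193 in shRenilla Starv, 201, 239 and 13.9 in shBruce FM and 389.6, 299.8 and 103 in shBruce Starv. Ratios were 0.0996 for Tap1, 0.0632 for Psmb8 and 0.148 for Psmb9. Lgals3bp, a secreted glycoprotein, had 3691, 3804 and 3368 in shRenilla FM, 3638, 3311 and 3545 in shRenilla Starv, 3445, 4426 and 366 in shBruce FM and 3656, 3537 and 3041 in shBruce Starv. The other secreted protein, Cxcl10 (chromosome 5, from 92346638 to 92348889 on the minus strand), which attracts T cells, had 2804, 2407 and 2154 in shRenilla FM, 1153, 1199 and 1298 in shRenilla Starv, 2587, 2909 and 1439 in shBruce FM and 1191, 1556 and 1298 in shBruce Starv. Lgals3bp had a ratio of 0.093, whereas Cxcl10 had 0.524.

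Of the further induced genes, Ifi44 (chromosome 3, from 151730922 to 151749960 on the minus strand) had 655, 469 and 453 in shRenilla FM, 654, 614 and 562 in shRenilla Starv, 314, 339 and 6.94 in shBruce FM and 599.5, 373 and 491 in shBruce Starv, and its ratio was 0.0212. Rtp4, a chaperone of membrane receptors, had 906, 797 and 729 in shRenilla FM, 1051, 968 and 1114 in shRenilla Starv, 663, 804 and 76.4 in shBruce FM and 1161, 1256 and 1340.3 in shBruce Starv, and Ifi35 had 1374, 1593 and 1358 in shRenilla FM, 1161, 1102 and 1343 in shRenilla Starv, 1500.4, 1892 and 533 in shBruce FM and 2107, 1896 and 1319 in shBruce Starv. Their ratios were 0.104 and 0.314, and that of Xaf1 was 0.0311. Members with and without the ISRE letters had overlapping ratios, with a median of 0.167 over the 18 with them and of 0.158 over the 17 without.

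**Figure D3:**
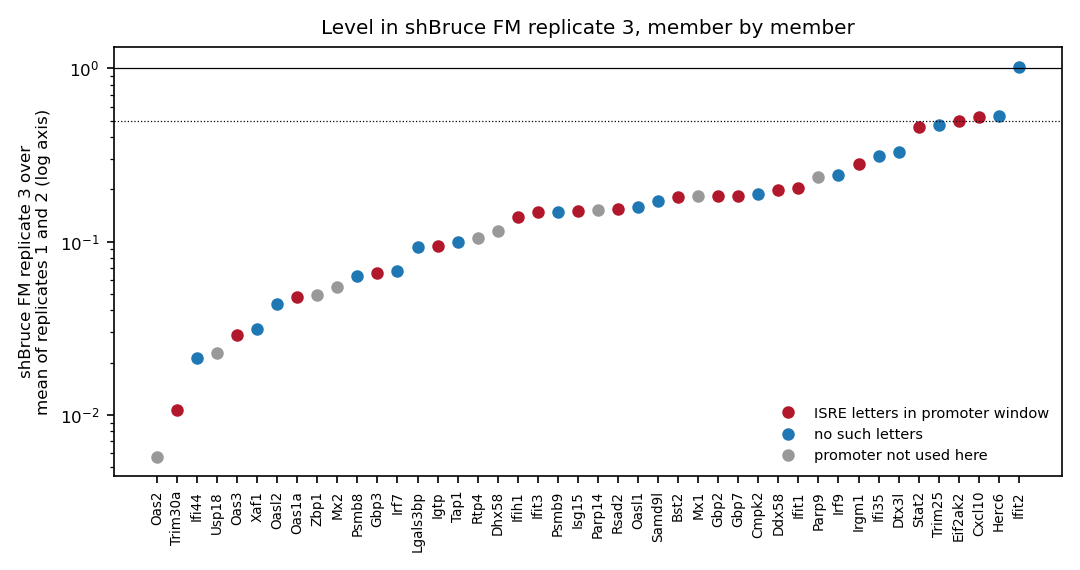
Ratio of the normalized count in shBruce FM replicate 3 to the mean of replicates 1 and 2 (log axis) for the 44 members, in order. Colours mark whether the promoter window holds the ISRE letters, the solid line is a ratio of 1 and the dotted line 0.5; Ifit2, Herc6 and Cxcl10 lie above 0.5, and red and blue points are mixed along the order.

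Transcripts of the receptors and kinases that carry the interferon signal to these promoters were not low in replicate 3. Counts of the 10 interferon genes listed (Ifnb1, Ifna1, Ifna2, Ifna4, Ifna5, Ifne, Ifnk, Ifng, Ifnl2 and Ifnl3) did not exceed 3 in any library, and their sum was between 0 and 6 reads, so that a difference between groups was not detectable at this depth. The receptor subunit Ifnar1 had 1441, 1333 and 1445 in shRenilla FM, 1595, 1581 and 1373 in shRenilla Starv, 1270.0, 1350.5 and 1529 in shBruce FM and 1086, 1088 and 1469 in shBruce Starv, and Ifnar2 had 624, 672 and 623 in shRenilla FM, 625, 579.8 and 678 in shRenilla Starv, 658, 628 and 647 in shBruce FM and 1056, 655 and 707 in shBruce Starv. Replicate 3 lay close to replicates 1 and 2 for both, with ratios of 1.17 and 1.01. Ratios were 1.09 for Ifngr1, 1.21 for Ifngr2, 1.17 for Il10rb, 1.17 for Jak1 and 1.39 for Tyk2, and Ifnlr1 failed the filter on low counts. Of the 29 genes of the pathway list that were tested, the sensor Tlr3 (ratio 0.262) was below 0.5, and the median ratio over the list was 0.995.

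A further list of 71 interferon-stimulated genes held 66 that were tested, of which 40 were below 0.5 in replicate 3, with a median ratio of 0.343. Low ratios were found for Ifi27l2a (0.0243) and Phf11d (0.0426), and for the MHC class I genes H2-K1 (0.214) and B2m (0.337). Ifitm2, which blocks viral entry, had 1536, 1578 and 1415 in shRenilla FM, 1029, 1061 and 1251 in shRenilla Starv, 1762, 1881 and 2250.2 in shBruce FM and 2166, 1698 and 1226 in shBruce Starv and a ratio of 1.24. The genes named from this list were chosen after their values had been seen. In all, 441 genes tested were below 0.5 times the mean of replicates 1 and 2 in this library, of which 82 were in the 3 interferon lists and 359 in none of them. The labels do not say whether this library came from the same culture as replicates 1 and 2, and a mix-up of samples was not tested beyond the low Birc6 count.

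Other cell types were followed with markers. In shBruce FM, the summed normalized counts of the 7 leukocyte markers found were 124, 149 and 109, most of them from Cd68, while Cd3e was at 0 and Itgam, Csf1r, Lyz2 and Cd79a were at or near 0 in every library. Ptprc had 10, 10 and 5 reads in shBruce FM, 9, 14 and 17 in shBruce Starv and 1 to 7 in the shRenilla libraries. The 3 markers of plasmacytoid dendritic cells summed to 3.19, 0 and 0 in shBruce FM. The endothelial markers summed to 21.2, 22.0 and 6.94 in the same group, and the epithelial markers to 3.19, 6.28 and 4.96. Fibroblast markers summed to 166024, 183851 and 197268, and Col3a1, at 175, 245 and 729, was highest in replicate 3. The part of these differences in the low values of that library was not tested.

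**Figure D4:**
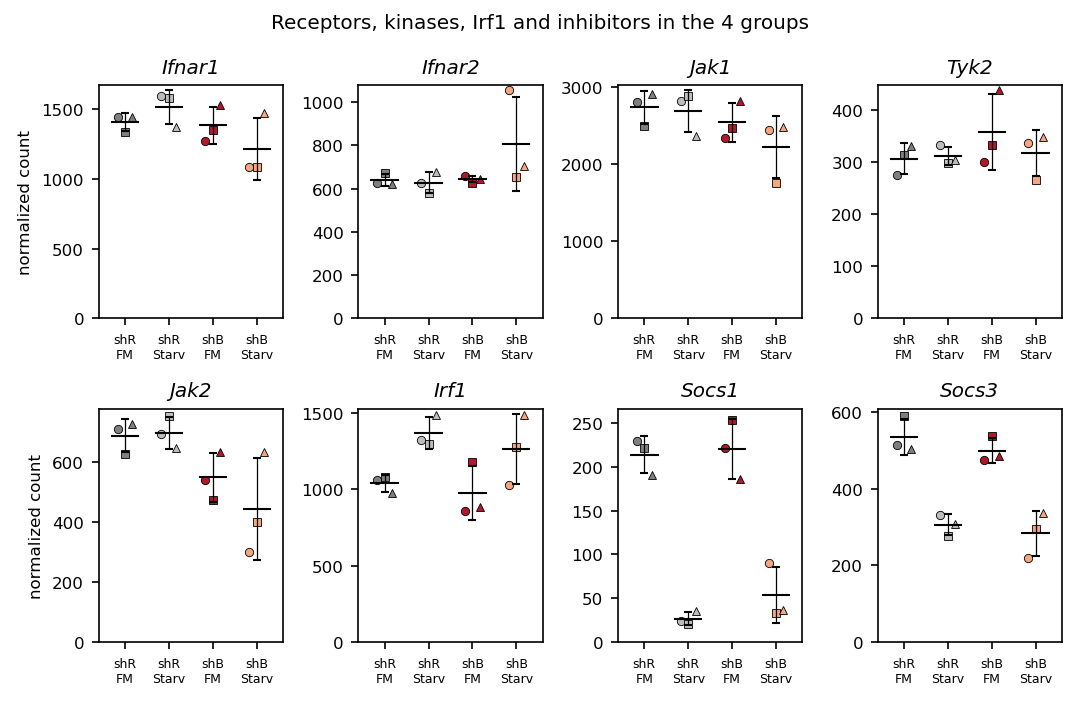
Normalized counts of 8 pathway genes in shRenilla (shR, grey) and shBruce (shB, red) MEFs in FM and Starv. Circles, squares and triangles are replicates 1, 2 and 3, lines are means and bars the SD over 3 libraries; in shBruce FM the triangle lies near the other 2 points for Ifnar1, Ifnar2 and Jak1, and Socs1 is lower in Starv than in FM in both lines.

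The comparison of the lines in FM includes this library. The median log2 fold change of members, shBruce over shRenilla, was -0.60 with all 12 libraries, with 44 of 44 below 0, and -0.15 without shBruce FM replicate 3, with 30 of 44 below 0. In replicates 1 and 2 alone, 13 members (29.5%) lay below all 3 shRenilla FM libraries and 0 above them, where 26.2% of all genes lay below and 26.1% above. Of the members named above, Ifit2, Ddx58, Ifih1, Trim30a and Gbp3 are among the 13. Starv against FM in shBruce MEFs rests on the same library, and its median over members was 0.69 with it and 0.23 without it. Both are descriptions, since the members were chosen for it.

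The response of the members to starvation in control cells does not involve the shBruce FM libraries except through the shared estimate of the spread. In shRenilla MEFs, Cxcl10 fell on starvation, by 1.01 on the log2 scale (SE 0.21, adjusted p = 0.00559, edgeR quasi-likelihood test, Benjamini-Hochberg). Its mean normalized count was 2455 ± 328 (SD, n = 3) in FM and 1217 ± 73.7 in Starv, and the groups did not overlap. The drop passed the threshold under all 22 alternative settings (log2 -1.10 to -0.91, adjusted p from 5.82e-05 to 0.0309). In shBruce cells Cxcl10 was at 1191, 1556 and 1298 in Starv, below its values in replicates 1 and 2 of FM and, for 2 of 3 libraries, below replicate 3.

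In the fit of 12 libraries, 0 members rose and 1 (2.27%), Cxcl10, fell, where 9.69% of all genes rose and 7.27% fell, and 2 members had an unadjusted p under 0.05. DESeq2's Wald test called 1 higher and 1 lower, and limma-voom 0 higher and 1 lower. Upper-quartile normalization moved the split over all genes from 1178 higher and 883 lower to 1588 and 641, and called 1 member higher and 1 lower. In a fit of the 6 shRenilla libraries, whose spread does not include the shBruce libraries, 14 members (31.8%) rose and 1 (2.27%) fell, where 22.4% of all genes rose and 19.5% fell. Without shBruce FM replicate 3 in the fit, 4 (9.09%) rose and 1 fell, where 10.4% rose and 7.76% fell. The groups did not overlap for 14 members (31.8%) higher and 4 (9.09%) lower in Starv, beside 25.9% and 26.5% of all genes. The median log2 fold change of members was 0.11 in the fit of 12 libraries.

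The members that rose in the fit of the 6 shRenilla libraries included both members that are parts of ISGF3. Stat2 rose by 0.71 ± 0.08 (SE) on the log2 scale (adjusted p = 0.000132, edgeR quasi-likelihood test, Benjamini-Hochberg) and Irf9 by 0.60 ± 0.08 (SE) (adjusted p = 0.000276, edgeR quasi-likelihood test, Benjamini-Hochberg). All 3 Starv libraries lay above all 3 FM libraries for both. Tap1 rose by 0.76 ± 0.10 (SE) (adjusted p = 0.000318, edgeR quasi-likelihood test, Benjamini-Hochberg) and Usp18 by 0.62 ± 0.08 (SE) (adjusted p = 0.000289, edgeR quasi-likelihood test, Benjamini-Hochberg). These 4 also passed without shBruce FM replicate 3, where their log2 fold changes were 0.68, 0.58, 0.73 and 0.60. In the fit of 12 libraries they were 0.69, 0.58, 0.73 and 0.60, with adjusted p of 0.0689, 0.288, 0.329 and 0.581 (edgeR). Oas3, Dtx3l, Rsad2, Parp14, Herc6, Trim30a, Trim25, Rtp4, Ifit2 and Ddx58 were the other 10, with log2 fold changes between 0.31 for Ddx58 and 0.64 for Oas3.

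In shBruce cells, the same ISGF3 genes were higher in Starv than in any FM library. Irf9 was at 2164, 1740.2 and 2322 in Starv and Stat2 at 1512, 1374 and 1824, against at most 1162 and 946 in FM. The libraries chosen for the list enter this contrast, and no test is given.

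**Figure D5:**
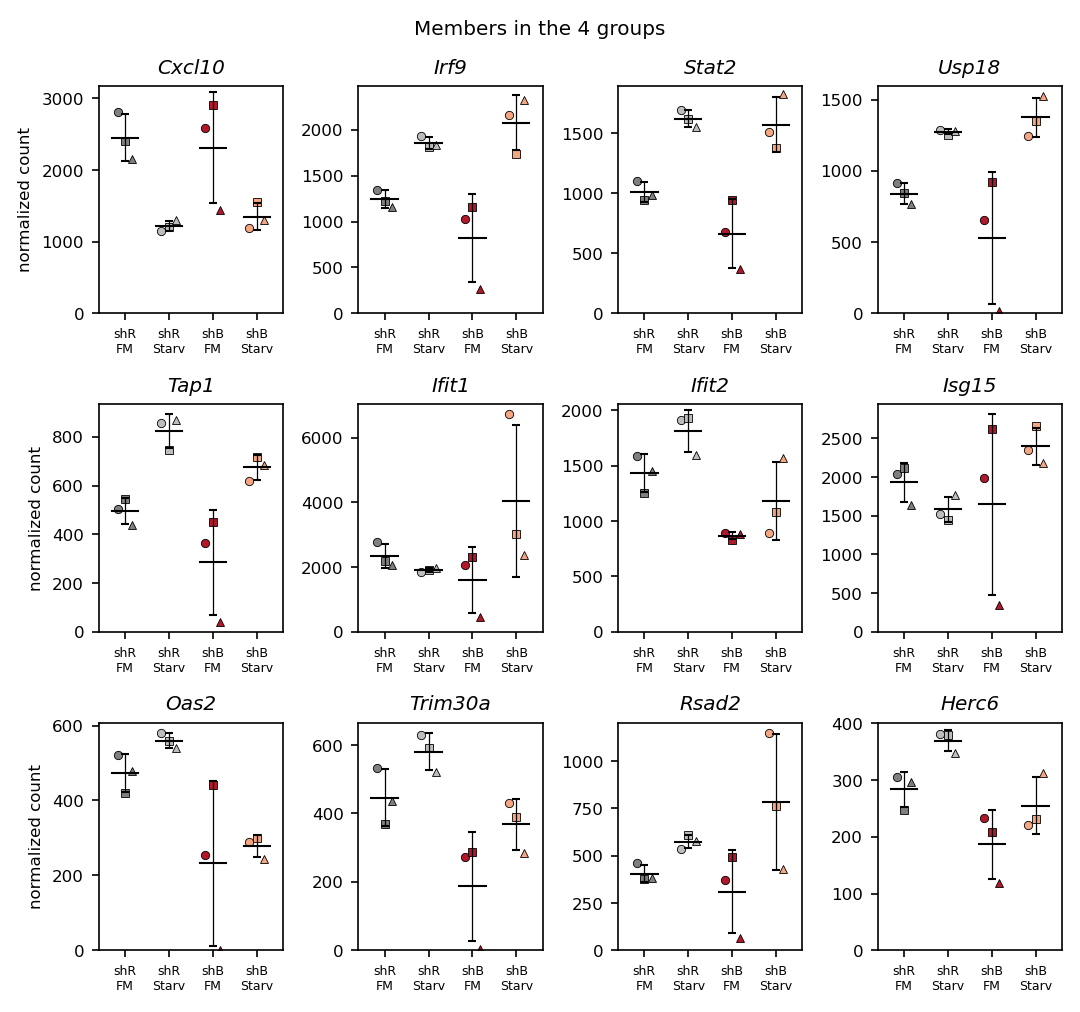
Normalized counts of 12 members in shRenilla (shR, grey) and shBruce (shB, red) MEFs in FM and Starv. Circles, squares and triangles are replicates 1, 2 and 3, lines are means and bars the SD over 3 libraries; Cxcl10 is lower and Irf9, Stat2, Usp18 and Tap1 are higher in shRenilla Starv than in shRenilla FM, without overlap, and the triangle of shBruce FM is far below the other points for most genes.

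Of the 7 inhibitors of the pathway listed, 3 fell and 1 rose on starvation in shRenilla MEFs, where 7.27% of all genes fell and 9.69% rose. These 4 were all the calls among the 29 pathway genes tested. Socs1, which blocks the receptor kinases, had 229, 222 and 190.0 in shRenilla FM, 24.7, 20.8 and 35.2 in shRenilla Starv, 221, 253 and 185 in shBruce FM and 90.8, 33.1 and 37.2 in shBruce Starv. In shRenilla cells it fell by 3.00 on the log2 scale (SE 0.32, adjusted p = 4.62e-05, edgeR quasi-likelihood test, Benjamini-Hochberg), and this passed under all 22 alternatives. Socs3 fell by 0.81 (adjusted p = 0.00292, edgeR quasi-likelihood test, Benjamini-Hochberg) and Irf2bp2, a corepressor that binds IRF2, by 0.97 (adjusted p = 0.000605, edgeR quasi-likelihood test, Benjamini-Hochberg). Pias1, an inhibitor of STAT proteins, rose by 0.44 (adjusted p = 0.028, edgeR quasi-likelihood test, Benjamini-Hochberg). The call of Pias1 ended when any of the 6 shRenilla libraries was left out. Over the whole list, 1 of 29 pathway genes (3.45%) rose and 3 (10.3%) fell in the fit of 12 libraries. In the fit of the 6 shRenilla libraries 2 (6.90%) rose and 7 (24.1%) fell, beside 22.4% and 19.5% of all genes. Irf1 was the second that rose in that fit (log2 0.42). The median over the list was -0.10 in the fit of 12 libraries. Of the 66 other interferon-stimulated genes, Trim14 rose (log2 1.24, adjusted p = 0.0355, edgeR quasi-likelihood test, Benjamini-Hochberg) and 0 fell, with a median of 0.01, and leaving out any of the 6 shRenilla libraries or shBruce FM replicate 1 ended this call. In the fit of the 6 shRenilla libraries 14 of 64 (21.9%) rose, among them Irgm2 at 1.26 and Adar at 0.66. In the same fit 10 (15.6%) fell, among them Casp4 at -0.48 and Ly6e at -0.47. Of all genes in that fit, 22.4% rose and 19.5% fell.

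The knockdown was compared in Starv, where the low library takes no part in the group means. Ifit2 was lower in shBruce than in shRenilla MEFs by 0.61 on the log2 scale (SE 0.18, adjusted p = 0.0309, edgeR quasi-likelihood test, Benjamini-Hochberg). Its mean normalized count was 1812 ± 186 (SD, n = 3) in shRenilla Starv and 1182 ± 349.7 in shBruce Starv, and the highest shBruce library, replicate 3, lay below the lowest shRenilla library. The difference passed in 15 of 22 alternative settings (log2 -0.87 to -0.37, adjusted p from 0.00064 to 0.126). It did not pass without replicate 1 or 2 of shRenilla Starv or of shBruce Starv. Over all genes, 0 were called without replicate 1 or 2 of shRenilla Starv. Leaving out shBruce Starv replicate 1 left 226 higher and 347 lower, and leaving out shBruce Starv replicate 2 left 5 and 10. The fit of 12 libraries called 1550 and 1357. Among all 44 members, 0 were higher and 1 (2.27%) was lower, where 12.8% of all genes were higher and 11.2% lower. Their median log2 fold change was -0.04.

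Without shBruce FM replicate 3 in the fit, 5 members (11.4%) were higher and 8 (18.2%) lower in shBruce Starv, beside 12.5% and 11.1% of all genes. The 5 were Ifit1 (log2 1.08), Ifit3 (0.63), Isg15 (0.60), Ifi35 (0.56) and Oasl1 (0.54). The 8 were Oas2 (-1.01), Samd9l (-0.89), Parp14 (-0.80), Ifih1 (-0.80), Trim30a (-0.67), Ifit2 (-0.61), Herc6 (-0.53) and Ddx58 (-0.50). Neighbouring IFIT genes thus lay on opposite sides, and so did Isg15 and its ligase Herc6. In the fit of the 6 Starv libraries alone 0 of 44 passed, and 15 had an unadjusted p under 0.05 (edgeR). Over all 11969 genes of that fit 0 passed, and 3662 had an unadjusted p under 0.05 (edgeR). The groups did not overlap for 7 members (15.9%) higher and 12 (27.3%) lower, beside 16.4% and 18.5% of all genes.

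Library shBruce Starv replicate 1, the shallowest, set part of these values. For Ifit1 it held 6722 beside 3033 and 2383 in replicates 2 and 3. Rsad2, which encodes the antiviral enzyme viperin, was at 1151, 764 and 432 in shBruce Starv and at 538, 608 and 578 in shRenilla Starv. The same library held 46.4 normalized counts of epithelial markers, mostly Krt18, beside 6.40 and 2.79 in the other 2, and their part in the result was not tested. With both this library and shBruce FM replicate 3 left out, a setting chosen after the data were seen, Isg15 was higher and Ifih1, Oas2 and Trim30a were lower in edgeR, 4 calls in place of 13. Of all genes, 2.93% were higher and 3.98% lower there, against 12.5% and 11.1% with shBruce FM replicate 3 alone left out. In place of shBruce Starv replicate 1, leaving out shBruce Starv replicate 2 or shRenilla Starv replicate 1 or 2 gave 0 calls, with 13 to 17 members at an unadjusted p under 0.05 (edgeR). At most 0.187% of all genes were higher and 0.261% lower in these settings. With replicate 3 of shRenilla Starv left out there were 13 calls, and with replicate 3 of shBruce Starv 20. Of all genes, 12.5% were higher and 11.5% lower in the first of these settings, and 23.8% and 26.3% in the second.

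In the pathway, Irf3, which switches on interferon genes, was higher in shBruce Starv by 0.50 on the log2 scale (adjusted p = 0.0258, edgeR quasi-likelihood test, Benjamini-Hochberg), as was Irf2bp1 by 0.50. Jak2, a kinase of the interferon-γ receptor, was at -0.64 (adjusted p = 0.047, edgeR quasi-likelihood test, Benjamini-Hochberg), the adaptor Traf3 at -0.56 and the phosphatase Ptpn11 at -0.43. In all, 2 of 29 pathway genes (6.90%) were higher and 3 (10.3%) lower, beside 12.8% and 11.2% of all genes. The median over the pathway list was -0.05. Ifnar1 was at -0.32 and Ifnar2 at 0.35, and neither passed. None of the 5 calls remained without shBruce Starv replicate 2 or without shRenilla Starv replicate 1 or 2, nor in the fit of the 6 Starv libraries, and without shBruce Starv replicate 1 that of Traf3 alone was kept among them. Of the 66 other interferon-stimulated genes, Psmb10, an immunoproteasome subunit (log2 1.09, adjusted p = 0.0408, edgeR quasi-likelihood test, Benjamini-Hochberg), and Ifitm2 (log2 0.60, adjusted p = 0.0321, edgeR quasi-likelihood test, Benjamini-Hochberg) were higher and 0 lower, with a median of -0.05. Psmb10 and Ifitm2 are 3.03% of that list, beside the 12.8% of all genes that were higher. Both calls ended without replicate 1 or 2 of either line in Starv. In these fits, and in that of the 6 Starv libraries, calls over all genes also fell, as given above.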

How the data were processed

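The members and the other gene lists were chosen with earlier results of these data known. RNA was sequenced from 12 libraries, 3 for each of shRenilla FM, shRenilla Starv, shBruce FM and shBruce Starv MEFs, and samples were grouped by their labels. Per the study's methods, total RNA was extracted with TRIzol, DNA was digested, poly(A) RNA was enriched and reads were single-end. The authors discarded rRNA reads, aligned what remained to mm10 by STAR 2.4.0d and made the deposited read counts per gene with HTSeq 0.5.4p3. The gene annotation, strand setting and overlap mode of the counting are not given in the sources used here. The counts are raw, in 24062 rows named by symbol. The labels do not say that replicates came from separate cultures, so p-values measure the spread between these libraries, which may be technical.

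The tests used edgeR 4.0.16 under R 4.3.3: TMM, filterByExpr, a single fit of all 12 libraries with group means, and two-sided quasi-likelihood tests. P-values were adjusted by Benjamini-Hochberg over the 12154 genes, at a level of 0.05. A normalized count is the count over its library's effective size, scaled to the geometric mean of the 12 sizes. Comparisons without shBruce FM libraries were tested for the members, and the others are described. There were 22 alternative settings. They were upper-quartile normalization, DESeq2 size factors in edgeR, DESeq2 1.42.0 (Wald test), limma-voom (limma 3.58.1), no low-count filter, a minimum of 10 counts in every library, a fit of the 2 groups compared alone, the replicate number as a block, removal of trends with transcript length and GC content (spline with 4 degrees of freedom) with and without that block, and omission of each of the 12 libraries. Gene positions and lengths came from GENCODE M21 on GRCm38 and promoters from RefSeq on GRCm38.p6. The fit was tested on simulated counts.

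Named members are the 2 with the highest mean normalized count in each role, those past the threshold, and the 5 lowest and 3 highest by the ratio of shBruce FM replicate 3 to the mean of replicates 1 and 2. Of the other lists, up to 5 genes per direction past the threshold are named, with the ligands and receptors. A gene of the pathway list is withheld and not reported here. Further genes, and members named from other fits, were picked after their values had been seen. Python 3.11.15 with pandas 2.3.3, numpy 2.4.6, scipy 1.17.1 and matplotlib 3.10.9 made tables and figures.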

Additional observations from a re-analysis of the deposited data

Results flagged for a closer look

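In shRenilla MEFs, Ifit1 was lower in all 3 Starv libraries than in all 3 FM libraries, with a log2 fold change of -0.29. In shBruce MEFs, it was higher in all 3 Starv libraries than in all 3 FM libraries, with a log2 fold change of 1.33, and the Starv libraries also lay above replicates 1 and 2 of FM alone. The log2 fold change in shBruce MEFs was 0.74 without shBruce Starv replicate 1 and 0.88 without shBruce FM replicate 3. The difference between the lines was not tested for Ifit1 on its own, since the shBruce FM libraries chose the members, and the interaction of line and medium passed the threshold for 0 of 12154 genes, with 474 at an unadjusted p under 0.05 (edgeR).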

How the results depend on the processing

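Counts below are genes past the threshold in either direction. The members called on starvation in shRenilla MEFs numbered 1 in the fit of 12 libraries, 2 with upper-quartile normalization, with DESeq2's Wald test and with length and GC trends removed, 15 with the 6 shRenilla libraries alone, and 1 to 5 with a library left out (5 without shBruce FM replicate 3). Between the lines in Starv the count of 1 became 0 with trends removed, with trends removed and the replicate block, and with the 6 Starv libraries alone, and was 0 to 13 with a library left out (13 without shBruce FM replicate 3). With shBruce FM replicate 3 and a Starv library left out together, added after the data were seen, it was 0 to 20. The other interferon-stimulated genes called on starvation, 1 in the fit of 12 libraries, numbered 2 with upper-quartile normalization and with trends removed, 3 with DESeq2's Wald test and with no filter, 0 with at least 10 counts in every library, 24 with the 6 shRenilla libraries, and 0 to 6 with a library left out. Between the lines in Starv they numbered 2, and 4 with upper-quartile normalization, 5 with DESeq2's Wald test and with no filter, 0 with trends removed and with the 6 Starv libraries, and 0 to 15 with a library left out (15 without shBruce Starv replicate 3). Pathway genes numbered 4 on starvation, 9 with the 6 shRenilla libraries, and 3 to 8 with a library left out (8 without shBruce Starv replicate 1 or 3). Between the lines in Starv they numbered 5, and 2 with trends removed, 0 with the 6 Starv libraries, and 0 to 9 with a library left out (0 without replicate 2 of either line or shRenilla replicate 1 in Starv, 9 without shBruce Starv replicate 3). Calls over all genes changed as well. On starvation in shRenilla MEFs 1178 rose and 883 fell in the fit of 12 libraries, and 2681 and 2332 with the 6 shRenilla libraries. Between the lines in Starv 1550 were higher and 1357 lower, and 0 and 0 with the 6 Starv libraries. They were 543 and 410 with trends removed, 2727 and 3008 without shBruce Starv replicate 3, and 1544 and 1364 without shBruce FM replicate 3. The cause of these changes was not tested.

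Whether replicate numbers pair the libraries is not given by the labels. Of 18 pairs with the same number, 4 had deviations with a correlation over 0.1 (range -0.438 to 0.326). Among 36 pairs with different numbers, 10 had one (range -0.359 to 0.478). Deviations from means of 3 libraries cannot exclude pairing. With the replicate block, members called numbered 1 in both tested comparisons, other interferon-stimulated genes 0 in both, and pathway genes 4 on starvation and 3 between the lines in Starv. With trends removed and the block, the other interferon-stimulated genes numbered 2 on starvation and 0 between the lines, and the pathway genes 4 and 0.

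The median log2 fold change of members between the lines in FM was -1.05 with limma-voom, and -1.03 to -0.15 with a library left out, -1.03 without shBruce FM replicate 2 and -0.15 without replicate 3. Starv against FM in shBruce MEFs had a median of 1.32 with limma-voom and of 0.23 to 1.18 with a library left out. Of the values recomputed for these summaries 113 kept their direction and, for counts, stayed within 1.5 times, while 30 counts were higher and 39 lower by more than that. With few members past the threshold in the fit of 12 libraries, counts of 1 or 2 say little about stability, and at 7717265 counts shBruce Starv replicate 1 limits the precision of its group.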
